A study of Mus musculus with 2 samples.

Results

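Cell division in the tumour immune infiltrate was described through 40 cell cycle genes of 55357 genes in the count matrices, chosen by the phase in which their RNA is known to peak: 16 S-phase genes (*Mcm2*, *Mcm3*, *Mcm4*, *Mcm5*, *Mcm6*, *Mcm7*, *Pcna*, *Tyms*, *Rrm1*, *Rrm2*, *Tk1*, *Gins2*, *Dut*, *Hells*, *Ccne2* and *Stmn1*) and 24 G2/M genes (*Mki67*, *Top2a*, *Ube2c*, *Cdca3*, *Cenpf*, *Cenpe*, *Cenpa*, *Birc5*, *Ccnb1*, *Ccnb2*, *Cdk1*, *Cdc20*, *Aurka*, *Aurkb*, *Plk1*, *Tpx2*, *Nusap1*, *Prc1*, *Kif11*, *Hmmr*, *Bub1*, *Cdca8*, *Tubb4b* and *Hmgb2*). The rule uses the phase and no expression value, and all 40 were found in both matrices. The cells came from subcutaneous tumours of MC38, a mouse colon adenocarcinoma line, grown in C57BL/6 mice of 2 genotypes that the labels name UEIS LSL and UEIS KI without expanding either term. UEIS is called a micropeptide in the series title, and the age and sex of the hosts and the time after implantation are not given in the sources used here. Each genotype is 1 library of cells labelled as tumour-infiltrating immune cells, with CD45 in the library name, and the labels do not say whether tumours were pooled. RNA was counted as unique molecular identifiers (UMIs, 1 per captured transcript) by 10x Genomics 3' v3 sequencing. With 1 library a genotype there is no replicate check, so no p-value is given, and every interval below covers counting error only.

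Cells copy their DNA in S phase and divide it in mitosis after G2, and each step has its own wave of transcription. E2F factors switch on the replication genes at the end of G1, and the DREAM and MYB-MuvB complexes with FOXM1 govern the later G2/M genes, largely through short promoter elements called CHR and CCAAT. Tumour macrophages derive from blood monocytes and from resident macrophages, and some of them divide in the tissue.

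The proximal promoters of the sets are shown first because the sets differ in these elements. Promoter windows from RefSeq on GRCm38.p6, from 250 bases before to 50 bases after an annotated start, were found for 12 of the 16 S-phase genes (13 promoters) and 22 of the 24 G2/M genes (23 promoters). On both strands, the CHR letters TTTGAA were present in 18 of 23 G2/M promoters (78.3%) and in 1 of 13 S-phase promoters, against 12.7% of 12641 promoters of genes measured in macrophages and 17.9% of all 32851 promoters. E2F letters (any of TTTCCCGC, TTTGGCGC, TTTCGCGC or TTTGCCGC, which can overlap each other when read on both strands) were present in 5 of 13 S-phase promoters (38.5%) and 1 of 23 G2/M promoters. The background was 4.01% of promoters of genes measured in macrophages and 2.26% of all promoters. CCAAT was present in 21 of 23 G2/M promoters (91.3%) and 9 of 13 S-phase promoters, against 38.0% of promoters of genes measured in macrophages and 37.4% of all promoters. A match describes the letters and does not show that a factor binds there. Below are the 120 bases before the start, read in the direction of the gene, with matches in capitals, for 4 G2/M genes and 2 S-phase genes.
Ube2c, chr2:164769809-164769928, plus strand: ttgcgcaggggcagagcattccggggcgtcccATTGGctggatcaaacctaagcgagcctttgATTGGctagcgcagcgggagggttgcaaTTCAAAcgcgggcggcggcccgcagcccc
Cdk1, chr10:69352913-69353032, minus strand: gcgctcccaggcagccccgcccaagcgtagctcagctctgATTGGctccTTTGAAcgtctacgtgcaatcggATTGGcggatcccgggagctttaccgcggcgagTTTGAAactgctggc
Cdc20, chr4:118437344-118437463, minus strand: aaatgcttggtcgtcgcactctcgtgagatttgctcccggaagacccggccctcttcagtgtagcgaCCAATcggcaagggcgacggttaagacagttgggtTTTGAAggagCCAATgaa
Kif11, chr19:37376262-37376381, plus strand: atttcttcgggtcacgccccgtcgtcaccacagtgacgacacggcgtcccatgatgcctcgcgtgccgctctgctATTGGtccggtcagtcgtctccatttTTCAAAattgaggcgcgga
Mcm6, chr1:128359706-128359825, minus strand: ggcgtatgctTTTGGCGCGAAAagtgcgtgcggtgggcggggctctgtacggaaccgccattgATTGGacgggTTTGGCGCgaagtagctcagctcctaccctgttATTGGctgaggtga
Hells, chr19:38930870-38930989, plus strand: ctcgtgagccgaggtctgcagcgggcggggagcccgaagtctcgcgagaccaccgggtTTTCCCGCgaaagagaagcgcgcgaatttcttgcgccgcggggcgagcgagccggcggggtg
In the *Cdk1* stretch there are 2 CHR and 2 CCAAT matches, and in *Ube2c* and *Cdc20* 1 CHR and 2 CCAAT matches each. *Mcm6* holds 3 E2F matches, 2 of them overlapping, with 2 CCAAT matches and no CHR letters, and *Hells* holds 1 E2F match alone.

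The UEIS LSL library held 9527 barcodes and 92764697 UMIs and the UEIS KI library 9734 barcodes and 99404988 UMIs. After quality limits and removal of called doublets 8646 and 8685 cells were left, with medians of 7892 and 8642 UMIs. The libraries shared 34 barcode sequences, 25 of them among the kept cells. Cells were gated on marker UMIs, with no cell cycle gene among the markers, which gave 6677 and 6988 macrophages (UEIS LSL and UEIS KI), 553 and 502 monocytes, 168 and 145 T cells with little macrophage RNA, and 223 and 145 *Ptprc*-negative cells with low lineage markers and at least 3 UMIs of 5 collagen and proteoglycan markers. The last group had been labelled tumour-like. Of its 6 fixed keratin and epithelial markers, *Krt18*, *Epcam* and *Cldn7* were listed at 0 in both libraries, and *Krt7*, *Krt8* and *Krt19* summed to at most 4 UMIs each in a library. *Sox9* (538 and 522 CPM, UMIs scaled to the summed UMIs of the group) and *Tm4sf1* (1263 and 1168 CPM) were detected in most of its cells, so it is called the *Ptprc*-negative *Sox9* *Tm4sf1* group here. A sort on CD45, the product of *Ptprc*, would be expected to remove such cells.

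In macrophages, cells carrying G2/M RNA were more frequent in UEIS KI, and the G2/M genes as a group stood higher there, whereas none of the 16 S-phase genes was 1.5-fold higher or lower. A cell was called positive for a set with at least 3 UMIs of it. By this rule 47.3% of UEIS LSL macrophages carried the S-phase set (95% Clopper-Pearson interval 46.1 to 48.5), and 51.2% of those from UEIS KI did (50.04 to 52.4). The G2/M set was positive in 55.4% (54.2 to 56.6) and 59.6% (58.4 to 60.8). At full depth a positive call is easier to reach in a cell with many UMIs: macrophages positive for both sets had medians of 12297 and 13870 UMIs, against 5192 and 5060 in those positive for neither, and macrophages as a whole were deeper in UEIS KI (9239 against 8186 UMIs). Mature dendritic cells, taken here as a reference of cells that divide little, were positive for the G2/M set in 23.5% and 25.7% of cells at medians of 5144 and 5134 UMIs.

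To compare cells at 1 depth, each was thinned at random to 2000 UMIs, which left out 326 UEIS LSL and 450 UEIS KI macrophages below that number. Of 6351 UEIS LSL macrophages 18.5% (17.6 to 19.5) were then positive for the G2/M set, and of 6538 from UEIS KI 23.1% (22.1 to 24.1) were, a log2 ratio of 0.32 (0.21 to 0.43). The S-phase set was positive in 22.2% (21.2 to 23.3) and 23.9% (22.9 to 24.97), a log2 ratio of 0.10 with an interval that includes 0 and reaches 0.21. So at this depth the interval of the G2/M ratio lay above 0, and that of the S-phase ratio only just reached 0. At full depth both intervals lay above 0, with log2 ratios of 0.11 (0.045 to 0.18) for S phase and 0.11 (0.041 to 0.17) for G2/M. The thinned mature dendritic reference lay at 2.15% and 6.35% for either set, from 2 of 93 and 4 of 63 cells. In UEIS KI 2 of these cells were positive for both sets, at a median of 21017.5 UMIs before thinning. Counting only cells with at least 10 UMIs of a set at full depth gave the same order, 24.5% and 28.0% for S phase and 18.5% and 24.4% for G2/M. Weighting both libraries to the same mix of macrophage states left the thinned G2/M shares at 18.3% and 22.5%.

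**Figure D1:**
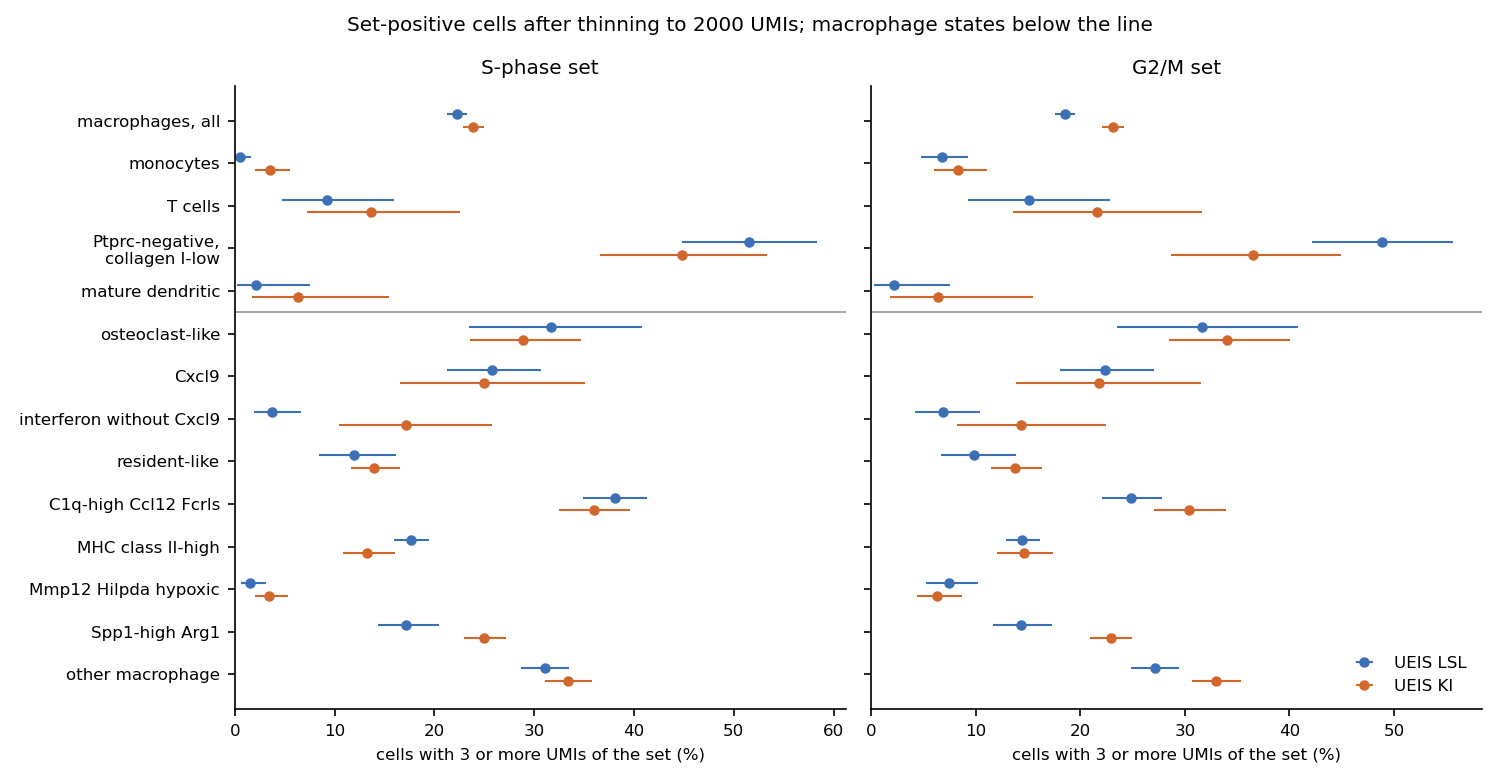
Share of cells with 3 or more UMIs of the S-phase set (left) and the G2/M set (right), in percent, after thinning to 2000 UMIs, with 95% Clopper-Pearson intervals, by gated cell type and, below the line, by macrophage state. UEIS LSL is blue and UEIS KI orange; the widest gap in the G2/M panel among macrophage states with more than 500 cells in each library is in the Spp1-high Arg1 state, at 14.3% and 22.9%.

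Levels were then compared gene by gene, as CPM of the UMIs summed over macrophages, and a gene was counted as higher or lower at 1.5-fold. All 40 genes passed the minimum of 50 UMIs over both libraries. The MCM2-7 subunits form the ring helicase that unwinds DNA at the fork, and their 6 log2 ratios of UEIS KI over UEIS LSL ran from -0.32 to -0.12, each with an interval below 0 and none past the fold. *Mcm2* was at 42.9 CPM in UEIS LSL and 34.4 CPM in UEIS KI (log2 ratio -0.32, -0.40 to -0.24), *Mcm3* at 78.2 and 62.7 CPM, and *Mcm6* at 87.5 and 80.3 CPM, the ratio nearest 0 of the 6. *Hells*, a chromatin remodeller of the SNF2 family, was at 26.9 and 23.5 CPM.

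The 5 genes of deoxynucleotide supply had log2 ratios from 0.0032 to 0.32, none past the fold. *Rrm2*, the S-phase subunit of ribonucleotide reductase, was at 67.0 CPM in UEIS LSL against 83.4 CPM in UEIS KI (log2 ratio 0.32, 0.26 to 0.37). *Tyms*, thymidylate synthase, was at 41.5 and 50.2 CPM, and *Tk1*, thymidine kinase, at 76.6 and 90.2 CPM. *Rrm1*, the large reductase subunit, was at 53.7 and 53.9 CPM, which is no difference beyond counting error (-0.06 to 0.07), and *Dut*, which removes dUTP, was at 74.99 and 78.7 CPM. The sliding clamp *Pcna* was at 124 and 136 CPM, while *Gins2*, a subunit of the replicative helicase complex, and *Ccne2*, an E-type cyclin of S-phase entry, had intervals that include 0. *Stmn1*, a tubulin-binding protein that destabilises microtubules, held the largest part of the S-phase UMIs (28.8% and 33.4%) and was at 354 and 437 CPM. None of the 16 S-phase genes was 1.5-fold higher and none was 1.5-fold lower, where 5.8% of all 13705 genes measured in macrophages were 1.5-fold higher and 5.98% lower. Their median log2 ratio was 0.02, beside 0.03 for all measured genes.

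Among the 24 G2/M genes 15 were at least 1.5-fold higher in UEIS KI and none was lower, against the same 5.8% of all genes, and 23 had a log2 ratio above 0. Their median was 0.63. The 7 mitotic kinases and cyclins all had log2 ratios above 0, and 5 were past the fold. *Cdk1*, the kinase that drives mitotic entry, was at 54.7 CPM in UEIS LSL and 88.5 CPM in UEIS KI (log2 ratio 0.69, 0.63 to 0.75). Its cyclins *Ccnb1* (27.1 and 50.1 CPM, 0.89) and *Ccnb2* (48.1 and 83.8 CPM, 0.80) lay above it in ratio. *Plk1*, the polo kinase of spindle assembly and mitotic exit, was at 17.7 and 33.2 CPM (0.91), and *Aurka*, *Aurkb* and *Bub1* lay between 0.53 and 0.61.

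*Cenpf*, which builds the outer kinetochore, had the highest ratio of the 40, with 26.6 CPM in UEIS LSL and 51.3 CPM in UEIS KI (log2 ratio 0.95, 0.86 to 1.03). The gene (ENSMUSG00000026605) lies on chromosome 1 from 189640606 to 189688086 on the minus strand of GRCm38. *Cenpa*, the centromeric histone H3, was at 95.2 and 147 CPM, and *Cenpe*, a kinetochore kinesin, at 17.1 and 26.3 CPM. *Ube2c*, the ubiquitin-conjugating enzyme of the anaphase-promoting complex, was at 112 and 210 CPM (0.90), its activator *Cdc20* at 20.6 and 32.6 CPM, and *Cdca3*, which links the Wee1 kinase to its ubiquitin ligase, at 45.7 and 80.2 CPM.

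The spindle genes *Prc1* (31.8 and 53.3 CPM), *Hmmr* (14.5 and 24.1 CPM) and *Nusap1* (31.4 and 48.4 CPM) were 1.5-fold higher. The kinesin *Kif11* (15.2 and 21.8 CPM), *Tpx2* and the tubulin *Tubb4b* (192 and 275 CPM) lay at 0.51 and 0.52, under the fold. *Birc5* and *Cdca8*, partners of *Aurkb* in the chromosomal passenger complex, lay at 0.56 and 0.52. *Mki67*, which coats mitotic chromosomes, was at 44.4 and 70.6 CPM, and *Top2a*, the topoisomerase that separates sister DNA, at 84.7 and 114 CPM.

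*Hmgb2*, a DNA-bending chromatin protein, was the exception, at 398 CPM in UEIS LSL and 377 CPM in UEIS KI (log2 ratio -0.08, -0.10 to -0.05). It is also the G2/M gene with most UMIs, 26.1% of the set's UMIs in UEIS LSL macrophages and 17.5% in UEIS KI macrophages. Without it 32.4% of the G2/M-positive UEIS LSL macrophages would lose the call, against 21.6% in UEIS KI. *Tubb4b* carried 23.4% and 21.5% of the calls in the same sense. *Hmgb2* and *Tubb4b* belong to families with near-identical copies or pseudogenes, so their counts depend on how reads that map to more than 1 copy were treated, which is not given in the sources used here. Without these 2 genes the G2/M share had a log2 ratio of 0.44 in place of 0.11 at full depth.

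**Figure D2:**
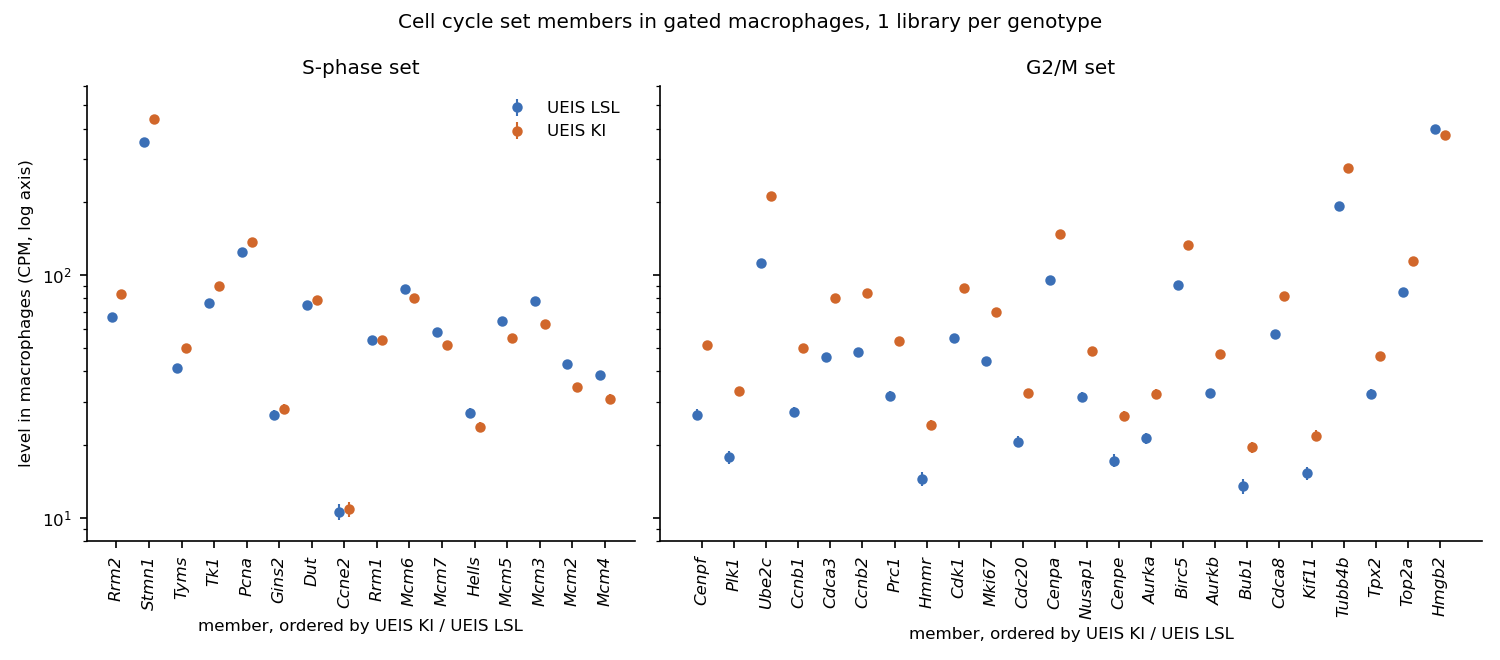
Level of the 16 S-phase genes (left) and 24 G2/M genes (right) in macrophages, in CPM on a log axis, 1 point per library (UEIS LSL blue, UEIS KI orange) with exact 95% Poisson intervals, most of them inside the point. Within each panel genes are ordered by the ratio of UEIS KI to UEIS LSL: the MCM genes sit at the right of the S-phase panel with UEIS KI lower, and *Hmgb2* is the G2/M gene with UEIS KI lower, at 398 and 377 CPM.

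The balance between the phases differed between the libraries within cells. In macrophages thinned to 2000 UMIs that held at least 6 UMIs of both sets together (1245 of 6351 in UEIS LSL and 1515 of 6538 in UEIS KI), the median G2/M share of those UMIs was 50% in UEIS LSL and 62.5% in UEIS KI. Cells with more than 2 of 3 such UMIs from the G2/M set made up 31.3% (390 cells) and 42.4% (643 cells). Cells with more than 2 of 3 from the S-phase set made up 30.7% (382 cells) and 18.7% (284 cells). As shares of all thinned macrophages, the G2/M-dominated cells were 6.14% and 9.83% and the S-dominated cells 6.01% and 4.34%. The S-phase-positive cells that were also G2/M-positive were 53.2% in UEIS LSL and 66.9% in UEIS KI.

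**Figure D3:**
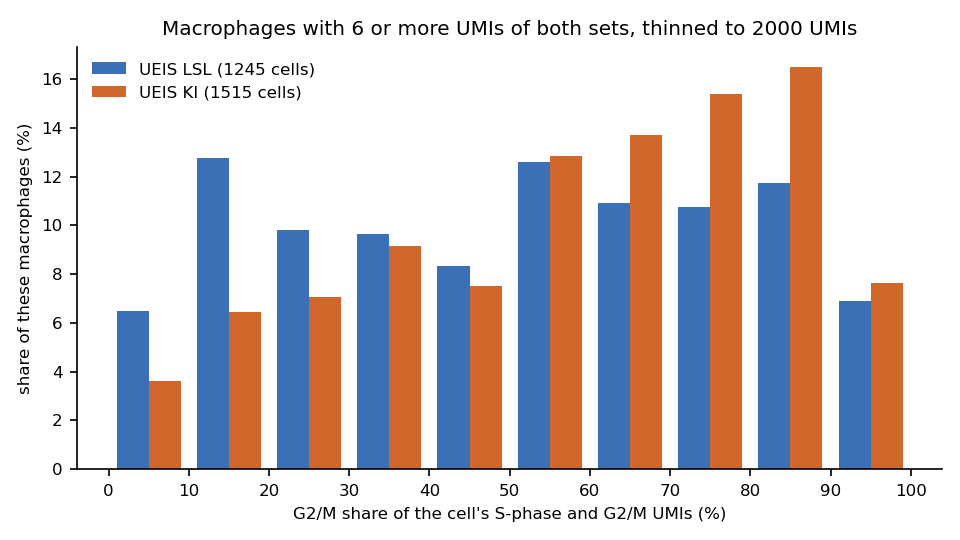
Distribution of the G2/M share of a cell's S-phase and G2/M UMIs (x axis, percent, in steps of 10) among macrophages thinned to 2000 UMIs with 6 or more UMIs of both sets, as percent of those cells in each library (UEIS LSL blue, UEIS KI orange). Below 50% every blue bar is the higher and from 50% every orange bar is, with the widest gap between 10% and 20% at 12.8% and 6.47%.

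How closely each gene went with division was read from cells chosen by the other set. Macrophages positive for the G2/M set (3699 cells in UEIS LSL) were compared with those holding no UMI of it (871 cells, with a median of 4233 UMIs against 10607). All 16 S-phase genes were higher in the positive cells of both libraries, at least 4-fold in 13 of them, with median log2 ratios of 2.63 and 2.60. In UEIS LSL *Rrm2* was at 2.40 CPM in the cells without G2/M RNA and 94.4 CPM in the positive ones, and in UEIS KI at 3.45 and 108 CPM, and *Tk1* was at 4.55 and 106 CPM in UEIS LSL and at 6.62 and 117 CPM in UEIS KI. *Pcna* stood apart with 73.1 and 144 CPM in UEIS LSL and 87.2 and 154 CPM in UEIS KI, log2 ratios of 0.98 and 0.82. The G2/M genes in cells chosen by the S-phase set had median log2 ratios of 4.499 and 4.67. *Hmmr* had 5.46 and 6.25 and *Nusap1* 6.25 and 5.25, while *Tubb4b* had 1.34 and 1.92, *Cenpa* 1.58 and 2.13 and *Hmgb2* 1.91 and 2.18.

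A further 99 cell cycle genes outside both sets were all measured in macrophages: 14 were 1.5-fold higher in UEIS KI and 2 lower, beside 5.8% and 5.98% of all genes, with a median log2 ratio of 0.24. Spindle and cytokinesis genes had 10 of 16 higher with a median of 0.63. Checkpoint and kinetochore genes had none of 13 past the fold, but all 13 above 0, with a median of 0.39, and condensin genes 1 of 6 higher (*Ncapg*) with a median of 0.46. Origin licensing and replication genes had none of 28 past the fold and 14 of 28 above 0, with a median of 0.01. The highest ratios were those of *Cdkn2a*, a CDK inhibitor locus (0.81 and 3.24 CPM, with 50 and 236 UMIs), *Aspm*, of the spindle poles (5.71 and 10.4 CPM, 0.87), and the condensin subunit *Ncapg* (8.50 and 13.9 CPM, 0.71). The lowest were *Ccnd2*, a G1 cyclin (73.3 and 35.7 CPM, -1.04), the CDK inhibitor *Cdkn1c* (4.14 and 2.72 CPM, -0.61) and *Ung*, uracil-DNA glycosylase (15.97 and 12.5 CPM, -0.35).

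Some RNA of other cells moved with the genotype in these macrophages. In cells with at least 10 G2/M UMIs the 5 collagen and proteoglycan markers summed to 342 CPM in UEIS LSL and 75.7 CPM in UEIS KI, the type 2 conventional dendritic cell markers to 263 and 50.2 CPM, and the T cell markers to 5.11 and 1.45 CPM. In the same cells the 8 monocyte markers summed to 1787 and 2384 CPM and the neutrophil markers to 10.9 and 25.7 CPM, both higher in UEIS KI. Macrophages with under 3 G2/M UMIs had the same order in each of these lists, so it was not particular to G2/M-rich cells. There the collagen and proteoglycan markers were at 307 and 63.7 CPM, the dendritic markers at 286 and 108 CPM and the T cell markers at 3.57 and 2.85 CPM. The monocyte markers were at 2636 and 3405 CPM and the neutrophil markers at 30.9 and 48.9 CPM. Among barcodes of all cell types that passed the quality limits, 11.4% and 11.3% of G2/M-positive ones had been called doublets and were removed. Of those positive for neither set 2.69% and 2.91% had been. The G2/M-positive barcodes were also deeper, with medians of 11253 and 12189 UMIs against 4771 and 4617.5. The part of this RNA or of doublets in the G2/M difference was not tested.

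By macrophage state, the median log2 ratio of the measured G2/M genes was above 0 in 8 of 9 states, the MHC class II-high state being the exception at -0.03. By thinned shares the G2/M set was higher in UEIS KI in 7 states and lower in 2, with an interval above 0 in 3. Genes were measured state by state at 50 UMIs over both libraries, so where fewer than all members are counted some could pass through 1 library alone, and such counts are a description only. The states were set by marker genes in a fixed order, and their numbers differed between the libraries: MHC class II-high cells numbered 1922 in UEIS LSL and 734 in UEIS KI, Spp1-high Arg1 cells 625 and 1742, and resident-like cells (with *Lyve1*, *Folr2*, *Cd163* or *Fcna*) 338 and 941. No difference between states was tested.

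In Spp1-high Arg1 macrophages, marked by osteopontin and arginase RNA, the G2/M set was positive in 14.3% (11.6 to 17.3) of UEIS LSL and 22.9% (20.9 to 24.98) of UEIS KI cells after thinning, and the S-phase set in 17.2% and 25.01%. Of the 24 G2/M genes 23 were 1.5-fold higher, against 6.94% of genes measured in that state, with a median log2 ratio of 1.11. *Cenpf* was at 16.2 and 55.2 CPM, *Ube2c* at 69.6 and 219 CPM, *Ccnb1* at 15.3 and 51.5 CPM and *Plk1* at 10.5 and 32.7 CPM. *Hmgb2* (302 and 375 CPM) was the 1 below the fold. The S-phase median was 0.06, with *Tk1* 1.5-fold higher (47.9 and 78.0 CPM) and *Mcm2* at 42.0 and 32.1 CPM. These cells were also deeper in UEIS KI, at a median of 10608 against 8189 UMIs, which thinning removes from the shares.

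Resident-like macrophages carried less of both sets: the thinned G2/M shares were 9.86% (6.71 to 13.9) and 13.7% (11.5 to 16.3), intervals that overlap. Their G2/M genes had a median log2 ratio of 1.41, with 21 of 24 higher against 7.71% of genes. *Ccnb1* was at 4.79 and 23.7 CPM from 11 and 144 UMIs, *Cdca3* at 10.4 and 47.9 CPM and *Mki67* at 11.3 and 43.8 CPM. Osteoclast-like macrophages, with *Acp5*, *Ctsk* or *Atp6v0d2*, had the highest thinned G2/M shares, 31.7% and 34.1%, with wide intervals in 120 and 270 cells. Thinning to 2000 UMIs left out 26 UEIS LSL and 5 UEIS KI cells of this state. In that state 19 of 24 G2/M genes were higher (5.43% of genes), *Plk1* at 19.4 and 55.4 CPM, while *Mcm3* was at 62.0 and 33.3 CPM and *Hells* at 30.5 and 16.4 CPM, both 1.5-fold lower, against 3.89% of genes.

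The C1q-high Ccl12 Fcrls state had the highest S-phase shares, 38.1% and 36.0%, and G2/M shares of 24.8% (22.0 to 27.8) and 30.4% (27.1 to 33.9). Of its G2/M genes 10 of 24 were higher (5.23% of genes). Macrophages of no named state had G2/M shares of 27.1% and 33.0% and 6 of 24 G2/M genes higher (2.96% of genes). The Cxcl9 state showed no difference beyond counting error in either share, 22.3% and 21.7% for G2/M in 349 and 92 cells, with 3 of 24 genes higher (5.28% of genes).

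In MHC class II-high macrophages the G2/M shares were 14.4% and 14.6%, and none of 24 G2/M genes was 1.5-fold higher, against 4.2% of genes. *Cenpf* was at 23.7 and 24.5 CPM and *Ube2c* at 92.7 and 114 CPM. All 16 S-phase genes had log2 ratios below 0, with a median of -0.43. Those 1.5-fold lower were *Mcm2* (33.9 and 21.2 CPM) and *Mcm5* (52.5 and 35.0 CPM), 2 of 16 against 4.69% of genes. After thinning 17.7% (15.99 to 19.5) of UEIS LSL cells were S-phase-positive, beside 13.3% (10.9 to 16.02) of UEIS KI cells.

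The interferon state without *Cxcl9* and the hypoxic state with *Mmp12* and *Hilpda* had the lowest set-positive shares of the states in UEIS LSL after thinning. In the interferon state the thinned S-phase share was 3.77% (11 of 292 cells) in UEIS LSL and 17.1% (18 of 105 cells) in UEIS KI, and the G2/M share 6.85% and 14.3%. Of 12 measured G2/M genes 10 were higher (9.52% of genes), and of 12 measured S-phase genes 8 were. *Stmn1* was at 85.9 and 211 CPM, *Tyms* at 11.4 and 31.5 CPM and *Cdk1* at 11.8 and 48.2 CPM, from 28 and 52 UMIs. In the hypoxic state 9 of 15 measured G2/M genes were higher (5.46% of genes). The direction of its G2/M share turned with depth: 39.3% and 50.8% at full depth (log2 ratio 0.37, 0.098 to 0.64), 17.3% and 18.5% at 4000 UMIs, and 7.46% and 6.25% at 2000 UMIs, beside 2.15% and 6.35% in mature dendritic cells at that depth.

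**Figure D4:**
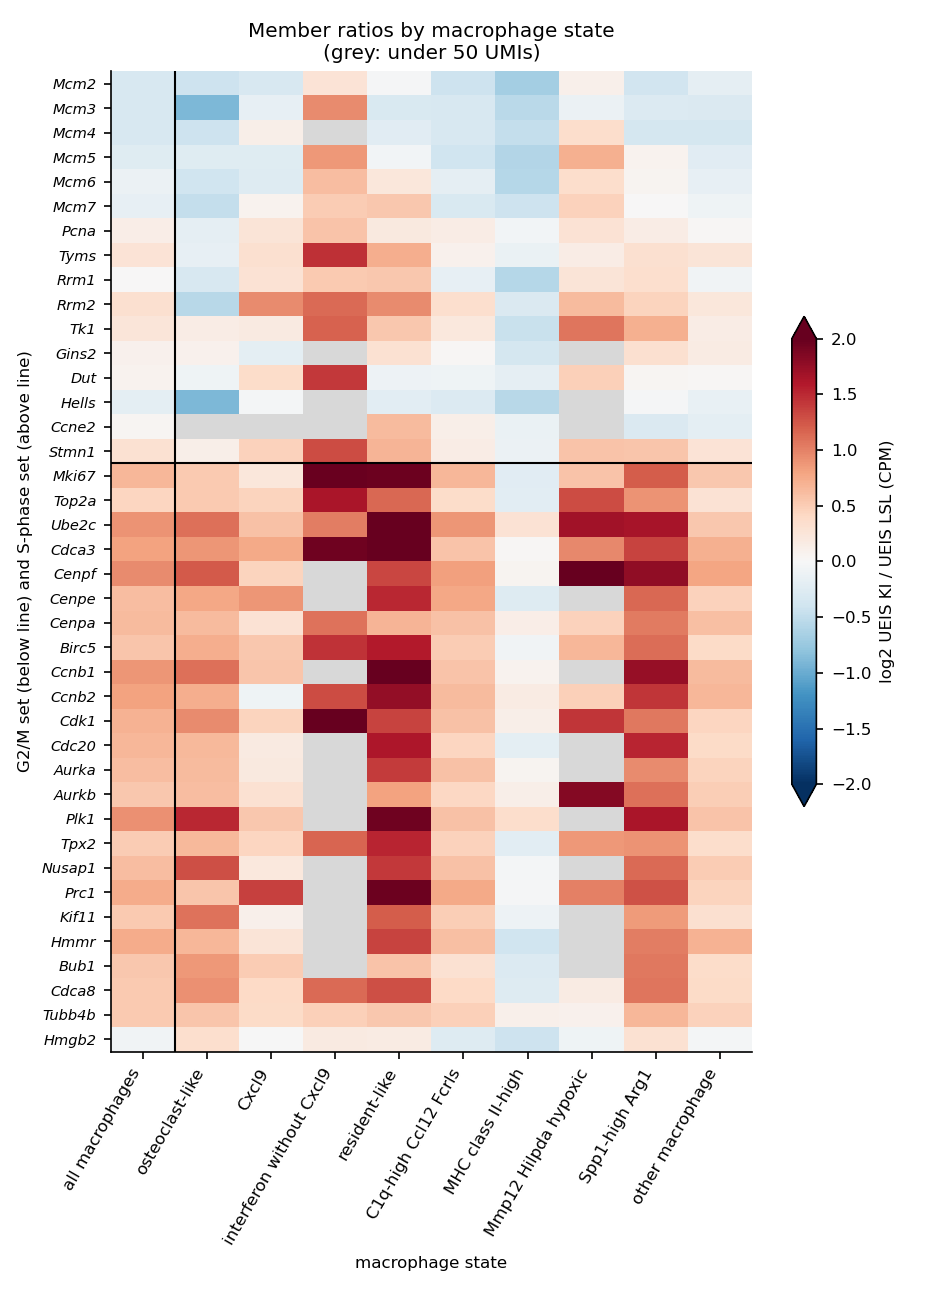
Log2 ratio of UEIS KI to UEIS LSL (CPM) for each of the 40 genes (rows, S-phase above the line, G2/M below) in all macrophages and in each macrophage state (columns). Red is higher in UEIS KI, blue lower, colours saturate at 2 in either direction, and grey marks genes under 50 UMIs; the MHC class II-high column is blue in the S-phase rows, with a median of -0.43, and pale in the G2/M rows.

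In monocytes, gated on *Ly6c2*, *Plac8*, *Chil3* and *Vcan* with little C1q RNA, most cells were negative for each set, and a small group of cells rich in both sets was present in UEIS KI. The G2/M set was positive in 25.3% of UEIS LSL and 34.5% of UEIS KI monocytes at medians of 3880 and 4827.5 UMIs, beside the mature dendritic reference of 23.5% and 25.7%. Thinned, the shares were 6.73% (4.73 to 9.24) and 8.26% (5.97 to 11.1), which do not differ beyond counting error, beside 2.15% and 6.35% in the reference. The thinned S-phase shares of 0.58% (3 of 520 cells) and 3.51% (17 of 484 cells) are below the reference in each library. Cells with at least 10 G2/M UMIs were 3 of 553 (0.54%, 0.11 to 1.58) in UEIS LSL and 22 of 502 (4.38%, 2.77 to 6.56) in UEIS KI. Among mature dendritic cells they were 0 of 102, where a floor of 3 counts allows a share of up to 2.94% and the exact interval reaches 3.55%, and 2 of 74, and in these 2 cells the 12 macrophage markers summed to 23599 CPM. Their median depth was 21017.5 UMIs, the same as that of the 2 UEIS KI reference cells positive for both sets after thinning. The UEIS KI reference of 6.35% thus rests in part on cells with macrophage RNA.

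Those 22 cells were chosen at full depth and had a median of 12616 UMIs, against 4193 in the UEIS KI monocytes with under 3 G2/M UMIs. The part of depth or of uncalled doublets in this group was not tested. The 22 cells held 50.1% of all G2/M UMIs of UEIS KI monocytes. Their 8 fixed monocyte markers summed to 7097 CPM, beside 8302 CPM in the UEIS KI monocytes with under 3 G2/M UMIs. C1q genes summed to 398 CPM against 416 CPM, neutrophil markers to 143 against 137 CPM, and T cell markers were at 0. The monocyte gate required summed RNA of *Ly6c2*, *Plac8*, *Chil3* and *Vcan* and limited C1q, neutrophil and T cell RNA. Likeness in these markers was therefore partly fixed in advance. Of 11 measured G2/M genes 8 were 1.5-fold higher in UEIS KI monocytes as a whole, against 11.1% of genes, and of 9 measured S-phase genes 7 were. *Ube2c* had 15 and 99 UMIs (6.02 and 33.3 CPM), *Ccnb2* 5 and 73 UMIs (2.01 and 24.5 CPM), *Tpx2* 2 and 50 UMIs (0.80 and 16.8 CPM) and *Stmn1* 58 and 300 UMIs (23.3 and 100.9 CPM). *Hmgb2* (212 and 219 CPM) and *Cenpa* (42.2 and 53.5 CPM) did not differ beyond counting error. Genes below 50 UMIs were left out, and a gene rich in those 22 cells could pass through UEIS KI alone, so these counts describe the cells just given and add nothing to them.

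T cells were few, and the direction of their shares depended on depth. The S-phase set was positive in 28.6% (21.9 to 36.0) of 168 UEIS LSL and 19.3% (13.2 to 26.7) of 145 UEIS KI T cells, and the G2/M set in 41.1% and 36.6%. Their median depth was 3628.5 UMIs in UEIS LSL and 2236 in UEIS KI, and after thinning the order turned, with S-phase shares of 9.24% and 13.6% and G2/M shares of 15.1% (9.22 to 22.9) and 21.6% (13.5 to 31.7) in 119 and 88 cells. None of these pairs differed beyond counting error. Cells with at least 10 G2/M UMIs were 9 and 7, and the 7 held 56.1% of the G2/M UMIs of UEIS KI T cells. Of 5 measured G2/M genes 4 were 1.5-fold higher, against 7.83% of genes: *Ube2c* (10 and 76 UMIs, 11.3 and 143 CPM), *Top2a* (23.8 and 54.5 CPM), *Cenpa* (81.6 and 133 CPM) and *Hmgb2* (300.5 and 477 CPM). The 50-UMI minimum left out 19 of the 24, and *Ube2c* passed it through UEIS KI alone, so this count only describes these cells. In those 7 cells the NK cell markers summed to 442 CPM and the T cell markers to 761 CPM, against 57.7 and 2290 CPM in the 9 UEIS LSL cells, and the part of this in the level of *Ube2c* was not tested. T cells that also carried macrophage RNA (153 and 63 cells) had thinned G2/M shares of 22.4% and 12.0%, with overlapping intervals.

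The *Ptprc*-negative *Sox9* *Tm4sf1* group had the highest set shares of any group with at least 50 cells in both libraries. At full depth 94.2% and 96.6% of its cells were positive for S phase and 93.3% and 93.1% for G2/M, at medians of 18433 and 17232 UMIs. Thinned, the S-phase shares were 51.6% (44.8 to 58.3) and 44.8% (36.6 to 53.3), and the G2/M shares 48.9% (42.1 to 55.6) and 36.6% (28.7 to 45.0), with overlapping intervals in both. Overlap does not make shares equal: for G2/M the difference, UEIS KI minus UEIS LSL, was -12.3 points, a log2 ratio of -0.42 (-0.92 to 0.067). The gate of this group asked for at least 3 marker UMIs and 2000 UMIs at full depth, so deep cells entered it more readily. Cells positive for both sets after thinning had full-depth medians of 27332 and 28283 UMIs, against 12246 and 13156 in those positive for neither. The part of this choice in the shares was not tested. None of 24 G2/M genes was 1.5-fold higher, against 7.03% of genes, and 1 was lower: *Birc5*, survivin, at 384 CPM in UEIS LSL and 233 CPM in UEIS KI (log2 ratio -0.72, -0.85 to -0.59), against 6.08% of genes. *Ube2c* was at 512 and 400 CPM, the opposite order to macrophages. *Cdk1* (150 and 141 CPM), *Cenpf* (148 and 156 CPM) and *Plk1* (59.3 and 58.1 CPM) did not differ beyond counting error. Among the S-phase genes *Mcm6* was at 180 and 243 CPM and *Tk1* at 278 and 197 CPM, both under the fold. The difference between this group and macrophages was not tested.

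Conventional dendritic cells, which present antigen and renew from dividing precursors, were 233 and 136 cells. All 14 measured S-phase genes had log2 ratios below 0 there, with a median of -0.61, and 8 of 14 were 1.5-fold lower in UEIS KI against 5.41% of genes, though a gene high in UEIS LSL could pass the 50-UMI minimum through that library alone. Of 15 measured G2/M genes 1 was higher (4.1% of genes) and none lower, with a median of -0.03. The thinned S-phase shares were 15.2% (10.8 to 20.6) and 8.96% (4.71 to 15.1), which overlap.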

How the data were processed

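Both 10x Genomics 3' v3 libraries were analysed from deposited raw UMI counts, the unnormalised Cell Ranger output of the authors. The file header names Cell Ranger 8.0.1, while the submitters' processing notes name 2.1.1 with mm10; the annotation and the handling of reads with several mapping positions are not given in the sources used here. Kept barcodes had at least 500 UMIs, at least 200 genes and at most 10% mitochondrial UMIs. Doublets were the highest Scrublet scores (scanpy 1.11.5), 0.8% per 1000 barcodes.

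Cells were gated from summed marker UMIs, scaled to 10000 UMIs per cell where depth matters, in the order *Ptprc*-negative group and fibroblast, T, NK, B, neutrophil, mature dendritic, conventional dendritic, monocyte, macrophage. Main limits were 20 for macrophage, 10 for monocyte and 3 UMIs for T cells; macrophage states followed in turn. Limits were set on marker distributions alone. The keratin gate found almost no cell, so the *Ptprc*-negative group was set by low lineage markers, low collagen I and at least 3 UMIs of 5 collagen and proteoglycan markers, a rule chosen after seeing the data.

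Shares have exact Clopper-Pearson 95% intervals, summed UMIs were scaled to CPM with exact Poisson intervals, and ratios (UEIS KI over UEIS LSL) have exact conditional binomial intervals. A gene was measured at 50 UMIs over both libraries. PCR copies were collapsed by UMI, so intervals cover counting error alone. No test was made. Named genes were all 40 by count, with values for the highest and lowest ratios, the most abundant, and those that show each role, and 3 highest and 3 lowest outside the sets. The genes, lists and gates were chosen with earlier results of these data known. Gene coordinates are those of GENCODE vM21 (GRCm38), which held 94.1% of the 55357 identifiers. Scripts were tested on simulated data.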

Additional observations from a re-analysis of the deposited data

Results flagged for a closer look

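At 2000 UMIs the share of S-phase-positive cells moved in opposite directions in different macrophage states, each with an interval on 1 side of 0. It was higher in UEIS KI in the interferon state without *Cxcl9* (log2 ratio 2.19, from 11 of 292 and 18 of 105 cells) and in the Spp1-high Arg1 state (0.54), and lower in the MHC class II-high state (-0.41). The interval of the MHC class II-high state includes 0 at full depth (log2 ratio -0.14) and at 1000 (-0.39) and 4000 UMIs (-0.22), and the interferon state had 0.87 at 4000 UMIs and an interval that includes 0 at 1000. The difference between the states was not tested, and each genotype is 1 library.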

How the results depend on the processing

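No paired analysis was possible because each genotype held 1 library, and for the same reason no replicate could be left out. Of 148 alternative values of the main results 123 stayed within the counting interval of a share, 1.5 times a count or 0.1 of a median, and none turned a difference whose interval lay on 1 side of 0. All values here are log2 ratios of UEIS KI over UEIS LSL. The macrophage S-phase share moved from 0.11 to 0.19 with at least 10 UMIs. The macrophage G2/M share moved from 0.11 to 0.23 with at least 5 UMIs, 0.40 with at least 10, 0.44 without *Stmn1*, *Dut*, *Hmgb2* and *Tubb4b*, and 0.42, 0.32 and 0.20 after thinning to 1000, 2000 and 4000 UMIs, so its size, not its direction, depends on the rule. The monocyte S-phase share moved from 1.497 to 0.73 with 2 UMIs, 2.68 with 5, 4.46 with 10, 0.13 at 1000 UMIs and 2.61 at 2000, and its G2/M share from 0.44 to 1.12 with 5, 3.01 with 10, 2.11 without those 4 genes, 1.94 at 1000 and 0.032 at 4000. T cell shares turned from -0.57 to 1.37, 0.56 and 0.39 (S phase) and from -0.17 to 1.42, 0.51 and 0.39 (G2/M) at 1000, 2000 and 4000 UMIs. The G2/M share of the *Ptprc*-negative group moved to -0.42 at 2000 UMIs. The S-phase median in macrophages moved from 0.02 to -0.092 without MHC class II-high cells. The G2/M genes 1.5-fold higher in macrophages numbered 12 to 15 over all alternatives, and the S-phase genes 0. Among single genes *Dut* turned from 0.07 to -0.0043 with the same mix of states and to -0.011 without MHC class II-high macrophages, and among state shares the hypoxic G2/M share turned from 0.37 to -0.19 with 10 UMIs and -0.25 at 2000 UMIs; the cause was not tested. Of the other single-gene values 413 stayed and 65 moved, and of the other state shares 174 stayed and 40 moved. The 10-UMI limit, both T cell gates together, and leaving out MHC class II-high or Spp1-high macrophages were chosen after seeing the data. Depth limits small groups, among them T cells, monocytes and the interferon and hypoxic states, where shares thinned to 1000 or 2000 UMIs rest on at most 40 positive cells in a library.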
